A study of Mus musculus with 8 samples.

Results

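The genes described here are the autophagy receptors and the ATG8 family measured in tumor-associated macrophages (TAMs), 10 genes of the 23413 in the deposited count table. They are the receptors Sqstm1, Optn and Nbr1, the ATG8 genes Map1lc3a, Map1lc3b, Gabarap, Gabarapl1 and Gabarapl2, and the regulators Tfeb and Ulk1. The genes were picked by name, with results for the same mice already known, including the higher Sqstm1 level after intraperitoneal thiostrepton. Their differences from DMSO are therefore descriptions. Where the rule applied to every gene of the table also called some of them, their number stands beside the share of all genes called and supports nothing. In macroautophagy, a membrane grows around cytoplasmic cargo, closes into an autophagosome and fuses with the lysosome. ATG8 proteins are coupled to lipid on that membrane, and receptors hold ubiquitin-marked cargo with one end and ATG8 with the other. In macrophages the pathway clears damaged organelles and microbes and feeds the lysosome, and p62, the product of Sqstm1, is itself degraded with its cargo while its gene is also switched on by stress-responsive transcription factors.

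Male B6 (C57BL/6) mice aged 8 to 10 weeks carried subcutaneous B16F10 tumors, a mouse melanoma line, and received 2 doses, on days 6 and 12 after engraftment. Thiostrepton, a thiopeptide antibiotic, was given intraperitoneally (I.P.) to 4 mice or beside the tumor under the skin (paratumor S.C.) at 20 mg/kg to 2 mice, and 2 mice received DMSO, the solvent. All 3 groups thus carried the same tumor, and no group was without it; the dose of the I.P. mice in this experiment and the route of the DMSO injections are not given in the sources used here. TAMs were sorted on day 18 as CD45+F4/80+CD11b+Gr-1- cells, and their mRNA was sequenced with 1 library per mouse, so that each group mean describes 2 or 4 mice.

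The libraries held 14127506 to 17577466 counts, at which 3 counts correspond to 0.169 to 0.218 CPM. Levels are given as CPM, the counts of a gene relative to the library total, scaled by TMM factors (trimmed mean of M values, edgeR). The sorted cells carried macrophage RNA in every group, with 8 macrophage markers summing to between 4902 CPM and 6640 CPM per mouse. Cd68 was the largest part of each sum. Emr1 (Adgre1), Itgam and Csf1r differed widely between the 2 S.C. mice. They were at 360 CPM, 103 CPM and 353 CPM in S.C. mouse 1, below both DMSO mice. In S.C. mouse 2 they were at 1020 CPM, 384 CPM and 1128 CPM, above both DMSO mice. Both S.C. mice lay below both DMSO mice for Mrc1 and Fcgr1, and above both for Cd68. Mrc1 was lower after both routes by an unadjusted P under 0.05 (edgeR quasi-likelihood test), beside 0.879% (I.P.) and 2.91% (S.C.) of all genes. Its log2 fold changes were -0.57 ± 0.23 (SE) and -1.06 ± 0.41 (SE). Mertk was called higher after I.P. dosing (0.96 ± 0.28 (SE)), beside 2.55%. Neither passed 0.05 after Benjamini-Hochberg adjustment. The libraries were also not alike in other markers. Summed over 7 neutrophil markers, DMSO mice lay between 5.83 CPM and 13.0 CPM, I.P. mice between 3.85 CPM and 34.4 CPM, and S.C. mice between 30.8 CPM and 256 CPM. Summed over 8 lymphocyte and natural killer markers, the levels were 9.07 CPM and 13.0 CPM after DMSO, with Ncr1 at 0, between 3.19 CPM and 14.5 CPM after I.P. dosing, and 24.8 CPM and 31.1 CPM after S.C. dosing. The 7 melanocyte markers summed to 597 CPM and 667 CPM, to between 461 CPM and 1671 CPM, and to 700 CPM and 2986 CPM in the same order. Fibroblast and endothelial markers were low in every mouse, with 7 of them summing to at most 9.33 CPM and with Pdgfra at 0 throughout. Of these, Kdr reached 7.23 CPM in I.P. mouse 4 and Pecam1 7.35 CPM in S.C. mouse 2. Among the mice, I.P. mouse 1 held the highest level of 6 of the 10 genes, and DMSO mouse 1 the lowest level of 7. The 2 S.C. mice lay far apart for Nbr1, Optn and Gabarap. Values without single mice are given beside the results that moved most. In bulk RNA from sorted cells, fewer cells of a type and less RNA per cell cannot be told apart.

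The promoters of Sqstm1, Optn and Gabarapl1 are shown, the receptors and the ATG8 gene with a RefSeq window for which all I.P. levels exceeded the DMSO levels. Tfeb, a regulator with the same separation, is not printed. Each line gives the 250 bases before the RefSeq transcription start in GRCm38.p6, read 5′ to 3′ along the gene, and capitals mark GC boxes (GGGCGG or its reverse complement).
Sqstm1, chr11:50210821-50211070, minus strand: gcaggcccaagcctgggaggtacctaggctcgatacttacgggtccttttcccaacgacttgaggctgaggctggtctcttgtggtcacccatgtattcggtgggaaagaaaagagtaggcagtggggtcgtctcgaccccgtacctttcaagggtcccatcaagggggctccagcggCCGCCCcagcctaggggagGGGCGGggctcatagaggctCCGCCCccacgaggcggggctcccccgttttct
Optn, chr2:5064118-5064367, minus strand: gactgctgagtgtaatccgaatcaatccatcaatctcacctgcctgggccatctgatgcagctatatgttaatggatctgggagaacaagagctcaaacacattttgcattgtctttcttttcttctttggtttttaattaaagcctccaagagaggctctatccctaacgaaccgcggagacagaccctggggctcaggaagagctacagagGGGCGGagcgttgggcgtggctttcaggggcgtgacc
Gabarapl1, chr6:129532942-129533191, plus strand: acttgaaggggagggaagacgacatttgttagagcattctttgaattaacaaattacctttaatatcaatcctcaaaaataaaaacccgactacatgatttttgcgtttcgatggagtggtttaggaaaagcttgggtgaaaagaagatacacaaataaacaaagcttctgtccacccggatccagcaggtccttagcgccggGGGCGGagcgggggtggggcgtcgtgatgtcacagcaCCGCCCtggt
The Sqstm1 window held 3 GC boxes, at -72, -53 and -33 from the start, the Gabarapl1 window 2, at -47 and -10, and the Optn window 1 before the start, at -37, and another at 32 past it. RefSeq gave 12 windows of 300 bases (250 before and 50 after a start) for 9 of the 10 genes, and none for Map1lc3a. Both strands were searched for each motif. The GC box and CCAAT were added to the search after the sequences were seen, so nothing is read from their shares. GC boxes were found in 10 of these 12 windows and in 35.7% of all 32851 windows. The E-box CACGTG, the core of the element bound by TFEB, was in 0 of 12 windows and in 7.15% of all. The core of the antioxidant response element, TGACNNNGC, was in 1 of 12, at 4 to 12 past the Map1lc3b start, and in 12.4% of all. The AP-1 motif TGANTCA was in 0 of 12 and in 7.81% of all. CCAAT was in 2 of 12 windows, both of Nbr1, and in 37.4% of all. These 12 windows were also richer in G and C, with a median of 57.5% against 52.7% for all windows and a median of 20 against 7 CpG dinucleotides. A match is a description of letters in these windows and not a bound site.

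In GENCODE M21 (GRCm38), the genes lie on 6 chromosomes, apart from each other. Sqstm1 spans chr11:50199366-50210827 on the minus strand, Gabarap chr11:69991143-69994951 and Nbr1 chr11:101552149-101581951 on the plus strand. Optn lies at chr2:5020642-5064051 (minus) and Map1lc3a at chr2:155276297-155278073 (plus). Gabarapl2 lies at chr8:111940703-111953612 and Map1lc3b at chr8:121590361-121598760, both on the plus strand. Gabarapl1 spans chr6:129533160-129542346 (plus), Tfeb chr17:47737030-47792419 (plus) and Ulk1 chr5:110784488-110810097 (minus). Exons of 4 genes overlap those of a neighbour, and the strand setting of the counting is not given in the sources used here. For Sqstm1 the neighbour, Mrnip, held 90 to 165 counts against 9058 to 28320 for Sqstm1. Zcchc14 beside Map1lc3b held 0 to 54 counts, and 1700101I11Rik beside Gabarapl1 held 0 to 17. The neighbour of Optn is 4930551O13Rik.

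Sqstm1 encodes p62, which gathers ubiquitinated proteins into bodies and also binds KEAP1, the inhibitor of the transcription factor NRF2. Its level was 614 CPM and 647 CPM in the 2 DMSO mice. After I.P. thiostrepton it was 1805 CPM, 1055 CPM, 997 CPM and 1456 CPM in mice 1 to 4. After S.C. dosing it was 887 CPM and 1220 CPM. Every treated mouse lay above both DMSO mice, and the ranges of the I.P. and S.C. mice overlapped. The group means were 631 CPM ± 23.2 (SD, n = 2) for DMSO, 1328 CPM ± 378 (SD, n = 4) for I.P. and 1053 CPM ± 235 (SD, n = 2) for S.C. The log2 fold change from DMSO was 1.07 ± 0.30 (SE) after I.P. dosing, a 2.09-fold higher level, and 0.72 ± 0.32 (SE) after S.C. dosing. Leaving out 1 mouse at a time kept the I.P. value between 0.89 and 1.18, with the lowest value in the absence of I.P. mouse 1. The S.C. value lay between 0.43 and 0.92 in the same way, and it was 0.43 without S.C. mouse 2.

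Optn encodes optineurin, a receptor for ubiquitinated mitochondria and bacteria that the kinase TBK1 switches on. Its level was 10.04 CPM and 12.9 CPM after DMSO. After I.P. dosing it was 37.8 CPM, 26.1 CPM, 15.9 CPM and 51.7 CPM, all above the DMSO mice. After S.C. dosing it was 23.1 CPM in mouse 1 and 8.23 CPM in mouse 2, one above and the other below both DMSO mice. The log2 fold change was 1.51 ± 0.47 (SE) for I.P., a 2.85-fold higher level, and stayed between 1.2 and 1.74 with 1 mouse left out. For S.C. it was 0.42 ± 0.65 (SE), and -0.51 without S.C. mouse 1.

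Nbr1 encodes a receptor built like p62, with a ubiquitin-binding domain and an ATG8-binding motif. It was steady in DMSO mice, at 57.3 CPM and 59.5 CPM. The I.P. mice held 28.7 CPM, 59.6 CPM, 48.8 CPM and 113 CPM, and so lay on both sides. The S.C. mice spread further, at 15.4 CPM and 97.5 CPM. The log2 fold changes were 0.10 ± 0.47 (SE) for I.P. and -0.07 ± 0.81 (SE) for S.C. Without S.C. mouse 2 the S.C. value was -1.98, and without S.C. mouse 1 it was 0.71. Leaving out I.P. mouse 4 gave -0.36 for I.P. No common direction of Nbr1 was therefore measured in either group, and its standard errors were the largest of the 3 receptors.

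**Figure D1:**
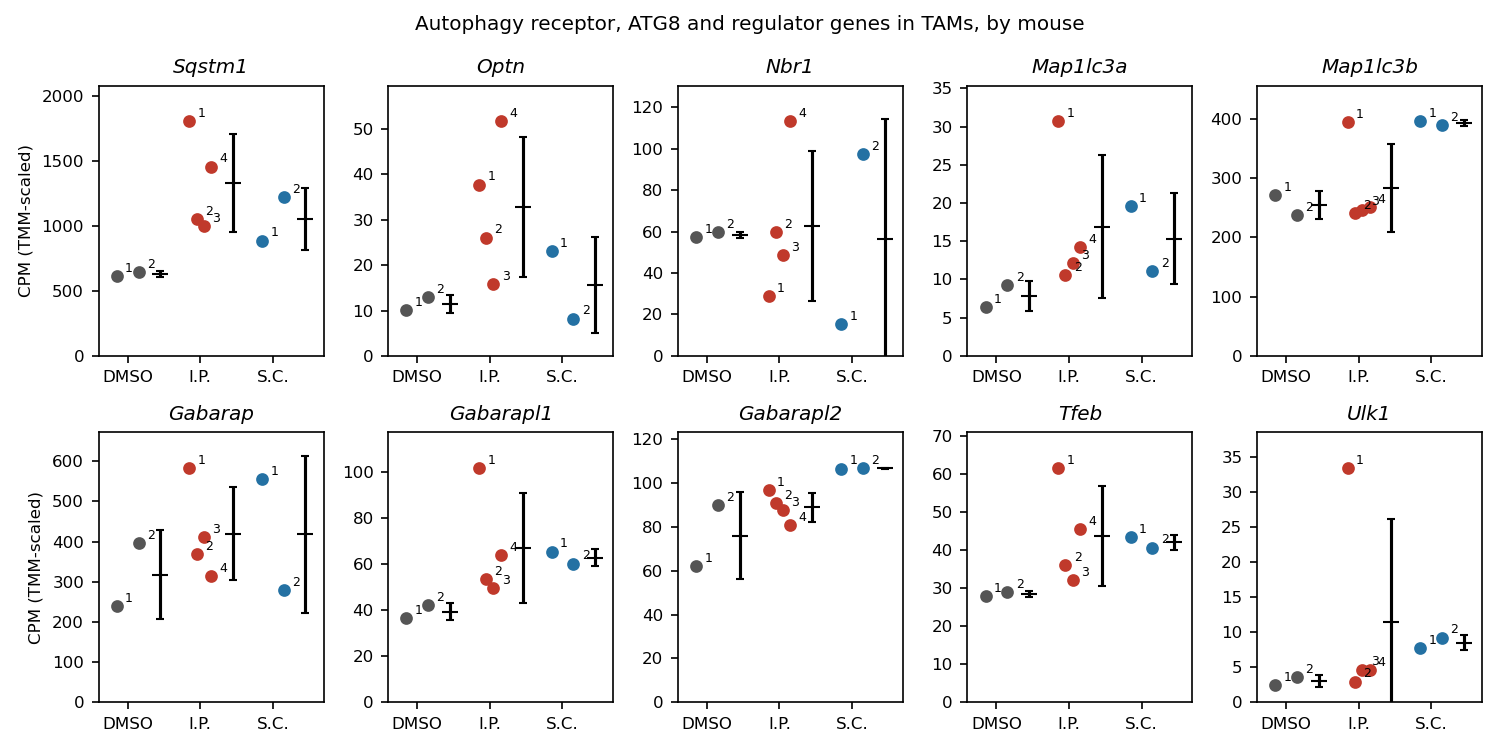
TMM-scaled CPM of the 10 genes (vertical axes, linear and starting at 0) in each mouse of the DMSO, I.P. and S.C. groups (horizontal axes); points are mice with their replicate number, and bars are the group mean ± SD, cut at 0 where the SD exceeds the mean. All treated mice lie above both DMSO mice for Sqstm1, while Nbr1 spreads to both sides and I.P. mouse 1 stands above the other mice for Ulk1, at 33.5 CPM.

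Among the ATG8 genes, Map1lc3a and Map1lc3b encode LC3A and LC3B, which act while the autophagosome membrane grows. Map1lc3a was at 6.44 CPM and 9.24 CPM after DMSO. I.P. mouse 1 held 30.7 CPM, and I.P. mice 2 to 4 held 10.6 CPM, 12.1 CPM and 14.2 CPM. The S.C. mice held 19.6 CPM and 11.1 CPM. All 6 treated mice lay above both DMSO mice. The log2 fold change was 1.09 ± 0.48 (SE) for I.P. and 0.94 ± 0.58 (SE) for S.C. Leaving out I.P. mouse 1 gave 0.65 for I.P., and leaving out S.C. mouse 1 gave 0.48 for S.C.

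Map1lc3b, the gene of the most widely used autophagosome marker, had 271 CPM and 237 CPM after DMSO. I.P. mouse 1 held 395 CPM, but I.P. mice 2 to 4 held 241 CPM, 247 CPM and 251 CPM, between the 2 DMSO mice. Both S.C. mice were above every DMSO mouse, at 396 CPM and 389 CPM. The log2 fold change was 0.15 ± 0.26 (SE) for I.P., and -0.04 without I.P. mouse 1. For S.C. it was 0.60 ± 0.29 (SE), and between 0.50 and 0.69 with any 1 mouse left out.

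Gabarap, Gabarapl1 and Gabarapl2 encode the other branch of ATG8 proteins, which act late, when the autophagosome closes and fuses, and which bind the ULK1 kinase. Gabarapl1 had 36.7 CPM and 42.1 CPM after DMSO. I.P. mice held 102 CPM, 53.4 CPM, 49.6 CPM and 63.8 CPM, and S.C. mice 65.4 CPM and 60.2 CPM. No treated mouse reached down to the DMSO mice. The log2 fold change was 0.76 ± 0.33 (SE) for I.P., and 0.50 without I.P. mouse 1. For S.C. it was 0.65 ± 0.33 (SE), and between 0.54 and 0.74 with 1 mouse left out.

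Gabarap levels overlapped between all groups. The DMSO mice held 240 CPM and 396 CPM, the I.P. mice 584 CPM, 369 CPM, 412 CPM and 315 CPM, and the S.C. mice 556 CPM and 281 CPM. Its log2 fold changes were 0.39 ± 0.32 (SE) for I.P. and 0.37 ± 0.45 (SE) for S.C. Leaving out DMSO mouse 1 lowered these values to 0.08 and 0.04, and leaving out S.C. mouse 1 gave -0.21 for S.C. Gabarapl2 had 61.9 CPM and 89.9 CPM after DMSO and 96.5 CPM, 90.6 CPM, 87.5 CPM and 80.6 CPM after I.P. dosing. The S.C. mice held 106 CPM and 107 CPM, above every other mouse. Its log2 fold changes were 0.22 ± 0.23 (SE) and 0.46 ± 0.33 (SE), and without DMSO mouse 1 they were -0.02 and 0.21.

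Tfeb encodes the transcription factor that turns on lysosomal and autophagy genes once mTORC1 releases it. The DMSO mice held 27.9 CPM and 29.1 CPM. The I.P. mice held 61.7 CPM, 36.1 CPM, 32.1 CPM and 45.4 CPM, and the S.C. mice 43.5 CPM and 40.7 CPM. All 6 treated mice lay above both DMSO mice. The log2 fold changes were 0.61 ± 0.30 (SE) for I.P., and 0.41 without I.P. mouse 1, and 0.54 ± 0.35 (SE) for S.C., between 0.49 and 0.56 with 1 mouse left out.

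Ulk1 encodes the kinase that starts autophagosome formation. It had 36 and 63 counts after DMSO, or 2.44 CPM and 3.62 CPM. I.P. mouse 1 held 525 counts, or 33.5 CPM, whereas I.P. mice 2 to 4 held 2.98 CPM, 4.68 CPM and 4.67 CPM. The S.C. mice held 7.74 CPM and 9.25 CPM, both above the DMSO mice and above I.P. mice 2 to 4. The log2 fold change for I.P. was 1.89 ± 1.01 (SE) and rested on mouse 1, since it was 0.44 without that mouse. For S.C. it was 1.46 ± 0.72 (SE), between 1.19 and 1.76 with 1 mouse left out.

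Over the 10 genes, the log2 fold change after I.P. dosing was positive for 10, beside 51.8% of all genes, and had a median of 0.69, against 0.02 over the 12174 genes fitted. By the rule of an unadjusted P under 0.05 (edgeR quasi-likelihood test), Sqstm1, Optn, Map1lc3a and Gabarapl1 were called higher, 4 of 10, beside 2.55% of all genes, and none was called lower, beside 0.879%. Of those, 3 were also at least 2-fold higher, beside 1.53% of all genes. For 5 of the 10, those 4 and Tfeb, the DMSO and I.P. ranges did not overlap and I.P. was higher, beside 7.31% of all genes. Since the genes were picked with these results known, nothing is read from these counts. After Benjamini-Hochberg adjustment over all genes, 0 of the 12174 passed 0.05 with edgeR, so that the 4 were called only without adjustment. Without I.P. mouse 1 the median was 0.42 and 9 of 10 were positive, with Optn at 1.44 and Nbr1 at 0.34. Without DMSO mouse 1 the median was 0.63, with Ulk1 at 1.65, Map1lc3a at 0.87, Gabarapl1 at 0.67 and Tfeb at 0.59. Without DMSO mouse 1 only Sqstm1 kept an unadjusted P under 0.05. Without DMSO mouse 2 or without I.P. mouse 4, Sqstm1 and Optn did.

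**Figure D2:**
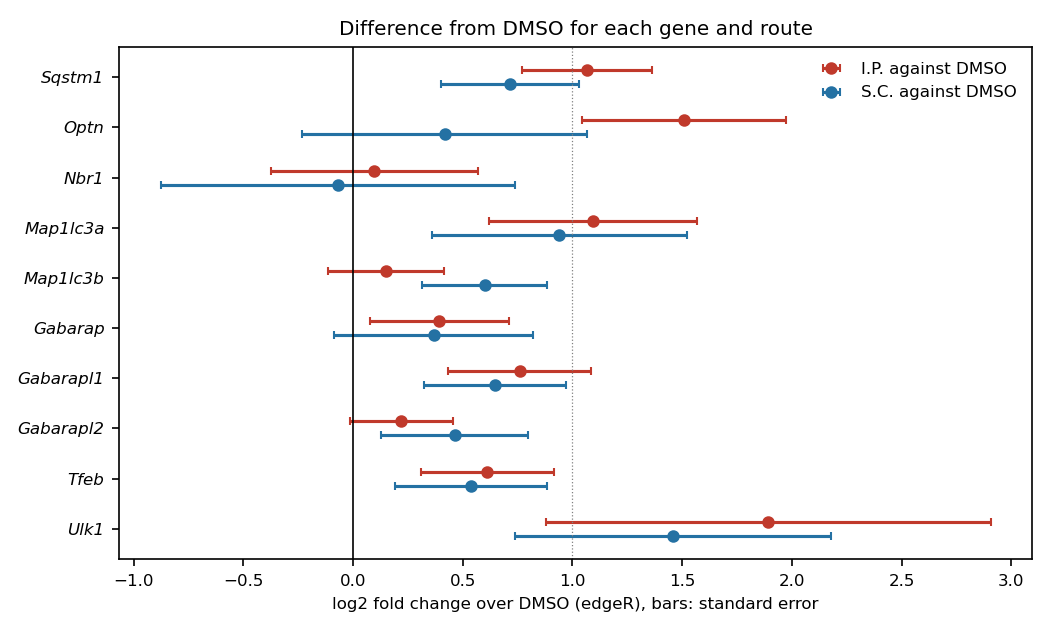
Log2 fold change from DMSO (horizontal axis) of each of the 10 genes (vertical axis) for I.P. and S.C. mice; points are edgeR estimates, bars are ± SE, the solid line marks no difference and the dotted line a 2-fold higher level. I.P. values run from 0.10 for Nbr1 to 1.89 for Ulk1, which has the widest bar, and S.C. values from -0.07 to 1.46.

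After S.C. dosing the log2 fold change was positive for 9 of 10, all but Nbr1, beside 51.6% of all genes, with a median of 0.57 against 0.02 over the 11680 genes fitted. With the library total alone as scale the median of all genes moved to -0.13 and that of the 10 to 0.42, and the same 9 to 1 split was found. None of the 10 had an unadjusted P under 0.05 with edgeR, beside 2.50% of all genes called higher and 2.91% called lower. DESeq2 gave 1 such gene, Sqstm1. Both S.C. mice lay above both DMSO mice for 7 of the 10 (Sqstm1, Map1lc3a, Map1lc3b, Gabarapl1, Gabarapl2, Tfeb and Ulk1), beside 17.1% of all genes. Without S.C. mouse 1 the median of the 10 was 0.53, and without S.C. mouse 2 it was 0.62, against -0.06 over all genes each time. With 1 S.C. mouse left, that mouse was assumed to vary like the DMSO mice, so no calls are given. The neutrophil, lymphocyte and melanocyte sums were higher in both S.C. mice than in both DMSO mice, as given above. The neutrophil and melanocyte sums overlapped those of the I.P. mice. Not every single marker followed its sum. Cd3d was below both DMSO mice in both S.C. mice, and Cd4 was so in S.C. mouse 1. Cd8a, Pmel and Mlana were below both DMSO mice in S.C. mouse 2. The part of these marker sets in the S.C. values was not tested.

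The routes were also compared with each other, without the DMSO mice. Between S.C. and I.P. mice the log2 difference was positive for 2 genes, Map1lc3b at 0.47 ± 0.28 (SE) and Gabarapl2 at 0.26 ± 0.24 (SE), and negative for 8, beside 51.8% of all genes positive, with a median of -0.12 against 0.02 over 12206 genes. The widest was that of Optn, at -1.07 ± 0.58 (SE), and Sqstm1 differed by -0.33 ± 0.31 (SE). No gene of the 10 had an unadjusted P under 0.05 with edgeR, beside 8.59% of all genes in either direction. The signs turned on I.P. mouse 1, since 7 of 10 were positive without it, with a median of 0.19. Leaving out 1 I.P. mouse called Map1lc3b (without mouse 1) or Optn (without mouse 3), with no share over all genes at hand for those fits. The estimates against DMSO share the same 2 DMSO mice, so an excursion in one of these shifts both routes alike. The paper describes its paratumor S.C. dose as lower than its I.P. doses. Dose and route thus differed together and cannot be told apart.

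The levels of different genes are compared only per kilobase, over the union of exons. In DMSO mice the mean was 188 CPM per kb for Sqstm1, 172 for Gabarap, 33.8 for Map1lc3b and 32.6 for Gabarapl2. It was 19.6 CPM per kb for Gabarapl1, 8.50 for Nbr1, 6.64 for Map1lc3a, 5.03 for Tfeb, 3.06 for Optn and 0.467 for Ulk1. Sqstm1 and Gabarap held the first and second place in every mouse of every group, and Ulk1 the ninth or the last. Sqstm1 and Gabarap did not differ beyond their spread in DMSO mice, where the SD was 6.91 for Sqstm1 and 60.0 for Gabarap, nor did Map1lc3b and Gabarapl2, with SDs of 3.18 and 8.50. With the median length of the coding transcripts instead, 5 of the 10 kept their place in the order of DMSO means, and Tfeb stood at 51.7 CPM per kb, next to Gabarapl1 at 54.7, so the places in the middle depend on the length used. Among the 3 receptors, Sqstm1 made up 93.5% to 97.4% of the summed level per kb in every mouse, and 94.6% to 98.0% with transcript lengths. Of the 3, the message in these cells was thus mostly that of Sqstm1, in treated and DMSO mice alike.

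**Figure D3:**
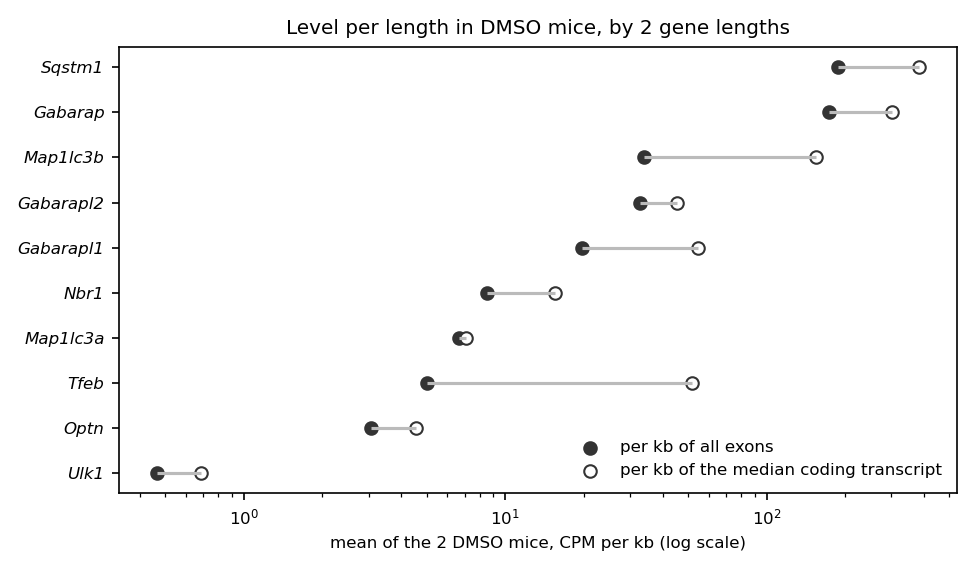
Mean level of each of the 10 genes in the 2 DMSO mice in CPM per kb (horizontal axis, log scale), with filled points per kb of all exons and open points per kb of the median coding transcript. Sqstm1 (188 and 382) and Gabarap (172 and 303) are highest and Ulk1 (0.467 and 0.689) lowest by both lengths, while Tfeb moves from 5.03 to 51.7.

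The genes with the pattern most like that of Sqstm1 across the 8 mice were found by Pearson's r of log2 CPM over the 9327 genes that averaged 5 CPM or more. These r values are descriptions over 8 mice from 3 groups that share libraries and depth. The closest were Ecm1 (0.97), which encodes a secreted matrix protein, Dirc2 (0.96), a lysosomal membrane transporter, Tcn2 (0.96), the carrier of vitamin B12, Ndst1 (0.96), an enzyme of heparan sulfate synthesis, and Zfand2a (0.96), a heat shock and arsenite-induced partner of the proteasome. Ecm1 had 113 CPM and 105 CPM after DMSO, 728 CPM, 197 CPM, 162 CPM and 411 CPM after I.P. dosing, and 161 CPM and 272 CPM after S.C. dosing. Zfand2a put the 8 mice in the same order as Sqstm1, with a Spearman's rho of 1. Without DMSO mouse 1 and I.P. mouse 1, the mice farthest from the median of Sqstm1, r was 0.97 for Ecm1 and 0.90 to 0.91 for the other 4. In all, 50 genes reached an r of at least 0.9. Of the other 9 autophagy genes, Tfeb and Gabarapl1 were the closest, both with an r of 0.89, and without the same 2 mice r was 0.73 and 0.71. For Map1lc3a, Ulk1 and Optn, r was 0.76, 0.74 and 0.65, and for Nbr1 it was 0.07. Without the same 2 mice r was 0.26 for Map1lc3a, 0.26 for Ulk1, 0.42 for Optn and 0.52 for Nbr1. For Map1lc3b, Gabarap and Gabarapl2, r was 0.41, 0.35 and 0.44 over 8 mice, and 0.13, -0.59 and -0.19 without those 2, so these values rested largely on them.

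**Figure D4:**
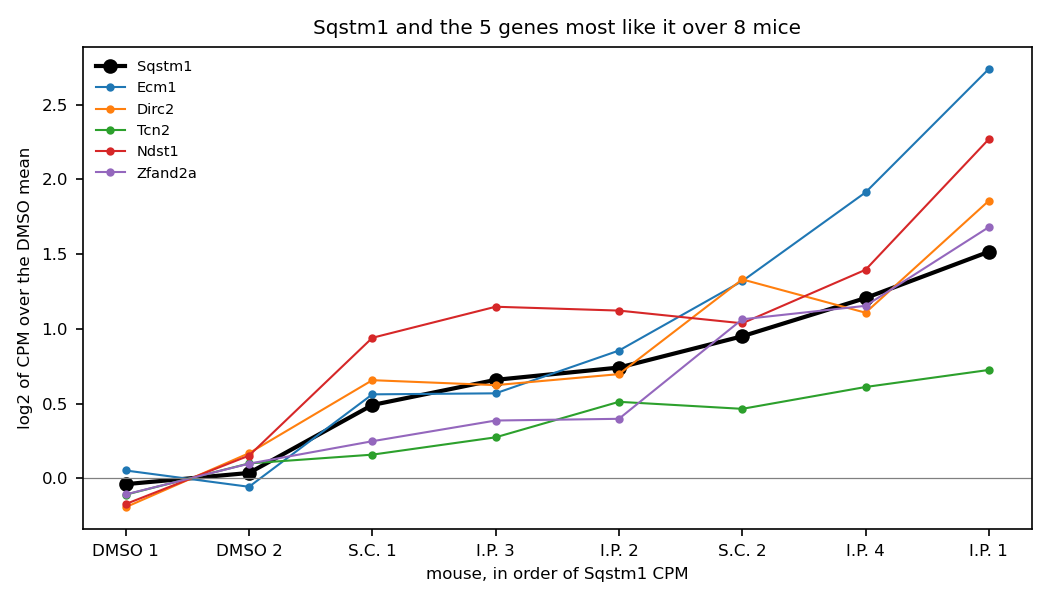
Log2 of CPM over the DMSO mean (vertical axis) of Sqstm1 (black) and the 5 genes most like it in each of the 8 mice, which stand along the horizontal axis in the order of their Sqstm1 CPM; lines join the values of 1 gene. DMSO mice are lowest and I.P. mice 4 and 1 highest for Sqstm1, and S.C. mouse 2 lies above I.P. mice 2 and 3.

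The rest of the autophagy pathway was read from 6 lists with 107 genes in the table, of which 106 were fitted. After I.P. dosing 67 had a positive and 39 a negative log2 fold change, beside 51.8% of all genes positive. The median was 0.11, against 0.02 over all genes and 0.69 for the 10 receptor, ATG8 and regulator genes. By an unadjusted P under 0.05, 3 were higher, beside 2.55% of all genes, and 1 was lower, beside 0.879%. The 3 belong to the list of TFEB relatives and mTORC1 control, where 20 of 28 genes were positive and the median was 0.29. Sesn2, a stress-induced inhibitor of mTORC1, was at 16.8 CPM and 9.30 CPM after DMSO and at 47.1 CPM, 24.3 CPM, 19.6 CPM and 41.1 CPM after I.P. dosing, with a log2 fold change of 1.33 ± 0.44 (SE). Fnip2, a folliculin partner, was at 39.8 CPM and 56.7 CPM against 125 CPM, 62.2 CPM, 74.3 CPM and 116 CPM, with a log2 fold change of 0.96 ± 0.35 (SE). Rragd, a Rag GTPase that brings mTORC1 to the lysosome, had a log2 fold change of 0.93 ± 0.36 (SE). Each of these 3, named because they were called, was above both DMSO mice in all 4 I.P. mice. Over the 6 lists this held for 9 of 106 genes, beside 7.31% of all genes. Bnip3, a receptor on mitochondria induced by low oxygen, was lower, at 863 CPM and 855 CPM after DMSO against 540 CPM to 663 CPM in the I.P. mice, with a log2 fold change of -0.50 ± 0.21 (SE). The edgeR adjusted p was 0.98 for each of these 4 genes, so none of them passed over all genes. The 4 calls became 1 without DMSO mouse 1 or without DMSO mouse 2, and 2 without I.P. mouse 4.

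Within the machinery that builds autophagosomes, no gene had an unadjusted P under 0.05 after I.P. dosing in 4 lists. The counts of positive genes below stand beside 51.8% over all genes. In ULK complex and PI3K initiation 15 of 21 were positive with a median of 0.20, and Atg2a, a lipid transfer protein, had a log2 fold change of 0.77 ± 0.42 (SE), and Atg9a, a lipid scramblase, one of 0.45 ± 0.30 (SE). In ATG8 conjugation 5 of 11 were positive with a median of -0.05, so the enzymes that couple ATG8 to lipid were centred near the median of all genes. The smallest P values there were those of Atg5 at 0.19 ± 0.21 (SE) and Atg4c at -0.27 ± 0.34 (SE). In autophagosome fusion 9 of 15 were positive (median 0.13), and Tecpr1, a tether of autophagosome and lysosome, was at 0.87 ± 0.41 (SE), and Vps18, a subunit of the tethering complex HOPS, at 0.48 ± 0.27 (SE). Among receptor partners 7 of 12 were positive (median 0.04), with Prkci at -0.57 ± 0.40 (SE) and Hdac6 at -0.56 ± 0.44 (SE). Among the other autophagy receptors, 11 of 19 were positive (median 0.06). Bnip3 was the only one called, and Fam134a, a receptor for the endoplasmic reticulum, was at 0.55 ± 0.28 (SE).

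After S.C. dosing 61 of the 106 pathway genes had a positive and 45 a negative log2 fold change, beside 51.6% of all genes positive. The median was 0.03. By an unadjusted P under 0.05, 3 were higher and none lower, beside 2.50% and 2.91% of all genes. Atg2a was at 4.61 CPM and 5.74 CPM after DMSO and at 13.7 CPM and 18.1 CPM after S.C. dosing, with a log2 fold change of 1.59 ± 0.56 (SE) and an edgeR adjusted p of 0.842. Calcoco1, a receptor for the endoplasmic reticulum, was at 4.54 CPM and 6.20 CPM against 18.97 CPM and 11.6 CPM (1.48 ± 0.59 (SE), edgeR adjusted p of 0.916). Nfe2l2, which encodes NRF2, was at 199 CPM and 194 CPM against 316 CPM and 431 CPM (0.90 ± 0.31 (SE), edgeR adjusted p of 0.83). By list, 14 of 21 initiation genes, 6 of 11 conjugation genes, 13 of 19 other receptors, 5 of 15 fusion genes, 19 of 28 TFEB relatives and mTORC1 genes and 4 of 12 receptor partners were positive, with medians from -0.16 to 0.16. Not called, but next by P in their lists, were Atg9a (1.12 ± 0.52), Atg4a (0.82 ± 0.51), Atg16l2 (0.72 ± 0.48) and Fam134b (0.85 ± 0.43) with positive and Snap29 (-0.88 ± 0.42), Vps33a (-0.56 ± 0.30), Rraga (-0.86 ± 0.38) and Prkag1 (-0.49 ± 0.31) with negative log2 fold changes (± SE). The count of calls turned on single mice. With a mouse left out, 1 mouse stood for a group, so those counts are not given. With the replicate numbers as a block the count of calls was 0.

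Between the routes, 42 pathway genes were higher and 64 lower in S.C. than in I.P. mice, beside 51.8% of all genes higher. The median was -0.10. An unadjusted P under 0.05 called 4 higher and 2 lower, beside 3.25% and 5.34% of all genes. Nfe2l2 was higher in S.C. mice, with I.P. mice at 194 CPM to 218 CPM (log2 difference 0.85 ± 0.23 (SE), edgeR adjusted p of 0.346). Sesn2 was lower in S.C. mice, at 18.4 CPM and 8.59 CPM, below all 4 I.P. mice (-1.29 ± 0.51 (SE), edgeR adjusted p of 0.532). The other calls were Atg4a, an ATG8 protease (1.01 ± 0.36 (SE)), Stbd1, a glycogen receptor (1.92 ± 0.71 (SE)), and Nufip1, a ribosome receptor (0.77 ± 0.33 (SE)), all higher, and Wdr45b, a phosphoinositide-binding protein (-0.72 ± 0.30 (SE)). The edgeR adjusted p of those 4 was 0.484 to 0.569. By list, 12 of 21 initiation genes, 6 of 11 conjugation genes and 8 of 19 other receptors were lower in S.C. mice. So were 19 of 28 TFEB relatives and mTORC1 genes and 6 of 12 receptor partners. In the fusion list it was 13 of 15, with a median of -0.42 and no call. The count of calls over the pathway turned on single mice and fell to 3 without I.P. mouse 2, 3 or 4.

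**Figure D5:**
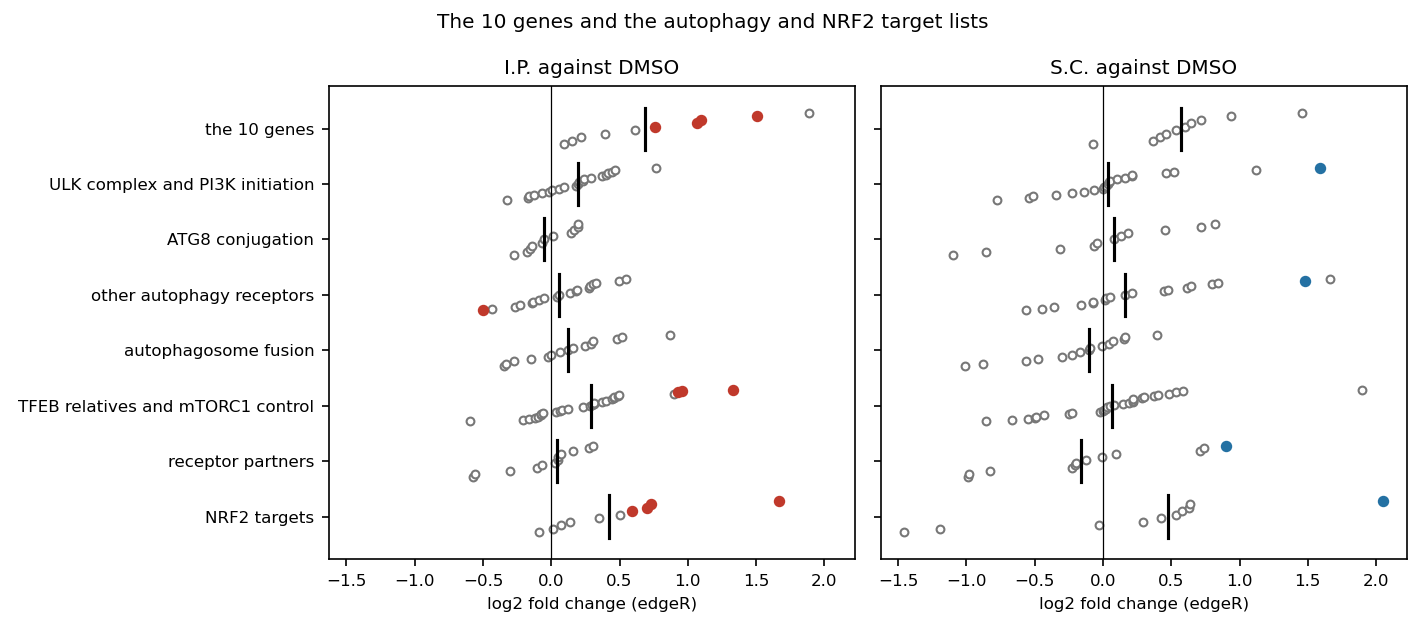
Log2 fold change from DMSO (horizontal axes) of every fitted gene of the 10 autophagy genes, the 6 pathway lists and a list of NRF2 targets (vertical axis), for I.P. (left) and S.C. mice (right); each point is a gene, filled points have an unadjusted P under 0.05 (edgeR), and bars are list medians. The 10 genes have medians of 0.69 (I.P.) and 0.57 (S.C.), the pathway lists between -0.16 and 0.29, and the NRF2 targets 0.43 and 0.48.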

How the data were processed

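mRNA libraries (KAPA mRNA HyperPrep) of sorted TAMs from 8 mice were analysed. The deposited table holds raw read counts per gene for 23413 gene symbols, as whole numbers. According to the study's methods, the authors aligned to mm10 with bowtie2 (2.2.3) and counted with RSEM (1.2.15), whereas the submitters' processing notes name TopHat2, edgeR and mm10, and which of these made the table is not known. Counting can assign reads of overlapping genes to either one. Library totals were 14127506 to 17577466 counts, and 3 counts set the floor. No sequencing batch is given in the sources used here.

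The 10 genes were taken by symbol, and samples were grouped by their labels. The members and lists were chosen with earlier results of these data known. edgeR (4.0.16, R 4.3.3) was run for each pair of groups over all genes kept by filterByExpr (minimum count 10, total 15), with TMM scaling, the quasi-likelihood test and Benjamini-Hochberg adjustment. SE is the absolute log2 fold change over the square root of F. Genes were called at an unadjusted P under 0.05, alone or with a fold of 2. The study's methods used P and the fold of 2 together, whereas most counts here use P alone. CPM used TMM-scaled totals, and log2 CPM a prior count of 2. Replicates are mice with 1 library each. The P-values and SE rest on the spread between these mice, which edgeR moderates for each gene by the spread over all genes. With 2 or 4 mice per group they therefore do not give the spread of a gene alone. For a single gene, an exact permutation test cannot go below a p of 0.133 (4 against 2 mice) or 0.333 (2 against 2), so none was run.

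Besides the 10 genes, the genes that could be named were, from each pathway list and from the NRF2 targets the 2 genes with the smallest P against DMSO per route and any gene with an unadjusted P under 0.05, the 5 genes most like Sqstm1, and markers. The 6 pathway lists cover ULK complex and PI3K initiation, ATG8 conjugation, other receptors, fusion, TFEB relatives and mTORC1 control, and receptor partners. Adgre1 was found under its older symbol Emr1, and Ly6g was not analysed here, and 1 other marker and the values of 1 pathway gene are not reported here. Gene positions and lengths came from GENCODE M21 and promoters from RefSeq (GRCm38.p6). GC box and CCAAT were added after the sequences were seen.

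Alternatives were RLE size factors, library totals alone, other filters, DESeq2 (1.42.0), 1 fit of all 3 groups, a replicate block, and each mouse left out. Deviations of same-numbered mice from their group means correlated at -0.187 to 0.169 over 9328 genes. To look for repeats of 1 library, libraries of a group were compared by chi-square, which was at least 61.3 per degree of freedom, so none was counted as a repeat. The fit was tested on simulated data before use.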

Additional observations from a re-analysis of the deposited data

Results flagged for a closer look

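Map1lc3b, the LC3B gene, set 1 I.P. mouse apart from the other 3. Mouse 1 held 395 CPM, and mice 2 to 4 held 241 CPM, 247 CPM and 251 CPM. On the log2 scale the gap between mouse 1 and the nearest other mouse was 0.915 of the range of the 4 mice, above Dixon's 95% critical value for 4 samples. The level in mouse 1 was close to that of both S.C. mice, at 396 CPM and 389 CPM.

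Rraga, which encodes a Rag GTPase that recruits mTORC1 to the lysosome, was higher in I.P. mouse 3, at 99.2 CPM, than in mice 1, 2 and 4, at 56.8 CPM, 56.6 CPM and 62.1 CPM. The gap was 0.833 of the range. DMSO mouse 2 held a similar level, at 98.1 CPM, whereas DMSO mouse 1 held 60.2 CPM. In all, 36 genes were examined in this way in the I.P. mice, and 2 were over that value, 1 of them among the 10 genes. Chance alone flags about 1 in 20.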

How the results depend on the processing

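With an unadjusted P under 0.05, the number of the 10 genes called after I.P. dosing was 4, and it was 2 with library totals alone and 1 to 5 with 1 mouse left out. After S.C. dosing it was 0, and 1 with DESeq2. Between the routes it was 0, and 0 to 1 with 1 mouse left out. Among pathway genes, 4 calls after I.P. dosing became 1 in a fit of all 3 groups and 1 to 5 with 1 mouse left out. The 3 calls after S.C. dosing became 5 in that fit and 0 to 29. The 6 calls between routes became 10 with DESeq2, 10 in the fit of all 3 groups and 3 to 23. With 1 mouse left in a group, that mouse is assumed to vary like the others. Filters and RLE factors kept each count within 1.5 times its value.

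The replicate numbers share only a number, since same-numbered mice did not deviate together. With them as a block, which can use I.P. mice 1 and 2 only, calls among the 10 genes were 2 after I.P., 0 after S.C. and 0 between routes. Calls among pathway genes were 1, 0 and 2. With I.P. mice 1 and 2 alone and no block, chosen after seeing the data, they were 5 of the 10 genes after I.P. dosing and 0 pathway genes between routes. Crossed numbers, also added later, gave 2 pathway calls after S.C. dosing.

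With transcript lengths, 5 of the 10 genes kept their place in the order of levels per kb. Of the 5 genes most like Sqstm1, 3 were found again by Spearman's rho and 1 without the 2 farthest mice. The 2 DMSO mice enter both contrasts, and Ulk1 had 36 counts in its lowest library, the fewest of the 10 genes.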

Other observations

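A list of 10 NRF2 targets, genes for antioxidant and iron-handling proteins that p62 can influence by binding KEAP1, was also read. After I.P. dosing 9 of 10 had a positive log2 fold change, beside 51.8% of all genes, with a median of 0.43 against 0.02 over all genes. Of the 10, 4 had an unadjusted P under 0.05, beside 2.55% of all genes called higher. Slc7a11, the cystine importer, was at 7.67 CPM and 9.19 CPM after DMSO and at 61.4 CPM, 16.7 CPM, 11.1 CPM and 19.2 CPM after I.P. dosing, with a log2 fold change of 1.67 ± 0.67 (SE). Gclm, a subunit of the enzyme that limits glutathione synthesis, was at 55.8 CPM and 91.6 CPM against 147 CPM, 131 CPM, 102 CPM and 110 CPM (0.73 ± 0.28 (SE)). Gsr, glutathione reductase, and Srxn1, sulfiredoxin, had log2 fold changes of 0.70 ± 0.26 (SE) and 0.59 ± 0.26 (SE). These 4 genes, named because they were called, were also the 4 of the 10 with every I.P. mouse above the DMSO range, beside 7.31% of all genes. The edgeR adjusted p was 0.98 for each. Among the I.P. mice, mouse 1 was highest for Slc7a11, Gclm and Gsr. The rest of the list was not called, and Hmox1, heme oxygenase, had a log2 fold change of 0.07 ± 0.59 (SE). The list was chosen with earlier results of these data known, so nothing is read from these counts.

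After S.C. dosing 7 of the 10 were positive, beside 51.6% of all genes, with a median of 0.48. Slc7a11 was the only one with an unadjusted P under 0.05, beside 2.50% of all genes called higher and 2.91% lower. It was at 27.8 CPM and 43.3 CPM (2.05 ± 0.47 (SE), edgeR adjusted p of 0.747). Hmox1, heme oxygenase, differed widely within groups, with 1077 CPM and 4316 CPM after DMSO, 1205 CPM to 4157 CPM after I.P. dosing, and 1420 CPM and 989 CPM after S.C. dosing, and its log2 fold change from DMSO was -1.19 ± 0.67 (SE) for S.C. Its log2 difference between S.C. and I.P. mice was -1.24 ± 0.46 (SE), with an edgeR adjusted p of 0.508.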
